A study of Homo sapiens with 6 samples.

Results

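Pancreatic ductal adenocarcinoma arises through a short list of recurrently altered genes. The 8 genes described here are the tumor suppressors of that list on the short arm of chromosome 9 (CDKN2A, CDKN2B and the neighboring MTAP), SMAD4, the chromatin regulators ARID1A and KDM6A, the repair gene BRCA2 and the oncogene GNAS. They were chosen by symbol, and all 8 were found among the 58735 genes of each expression table.

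The study asked whether injected ovarian cancer cells restrain pancreatic tumors, and its RNA sequencing compared 6 xenograft tumors. SW1990, a human pancreatic cancer cell line, was grown as a subcutaneous donor tumor, and pieces of it were transplanted under the skin of BALB/c nude mice, which lack mature T cells but keep other immune cells and their own stroma. The 3 tumors of the normal saline control group (NSCT) were injected with normal saline solution, and the 3 tumors of the high dose group (SKOV3 HD) with SKOV3, a human ovarian cancer cell line. The dose, the day of collection and the age of each mouse are not in the labels, and all 6 tumors carry the SW1990 genome. Because SKOV3 and SW1990 are both human, a gene's RNA from the injected cells cannot be told apart from that of the tumor, and in bulk tissue fewer cells of a type and less RNA per cell cannot be told apart either.

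CDKN2A encodes p16INK4a, which holds back the cyclin-dependent kinases CDK4 and CDK6 and so keeps the RB1 protein active, and, from another first exon and reading frame, p14ARF, which binds MDM2 and spares p53. CDKN2B encodes the related inhibitor p15INK4b. MTAP, the phosphorylase of the methionine salvage pathway, lies beside them and is often lost with CDKN2A when that stretch of chromosome 9 is deleted in a tumor. A homozygous deletion leaves no template for RNA, so a gene at 0 is what such a loss would leave, but low RNA alone can have other origins and DNA was not measured here.

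All values are FPKM, a count of fragments divided by the exon length of the gene and the depth of the library, in which 1 fragment is 1 sequenced piece of RNA. Each library held 13585284 to 15258633 fragments, and each member was covered by the number of fragments given beside it. Fold changes are SKOV3 HD over NSCT on log2(FPKM + 0.1), a scale that understates the change of low genes, tested with limma over the 15136 genes with at least 10 fragments in at least 3 libraries and adjusted by Benjamini-Hochberg. NSCT 1 lay apart from the other 5 tumors on the first principal component (33.3% of the variance), so values without it are given where the sign of a difference changes. The 12 markers of pancreatic ductal cells summed to 2191 to 2738 FPKM in NSCT and 2402 to 3013 FPKM in SKOV3 HD, a sum carried by KRT8, KRT18, KRT19 and EPCAM. Of that list CEACAM5 was at 0.318 to 1.05 FPKM and CEACAM6 at 0.116 to 0.771 FPKM, and the log2 fold change was -1.24 for TFF1, -0.51 for AGR2 and 0.56 for MUC1, none past the test. The 12 markers of fibroblasts, endothelium and leukocytes summed to no more than 1.32 FPKM in any tumor, and 6 of them (DCN, LUM, CDH5, PTPRC, CD68 and CD3E) had at most 3 fragments. These are human genes, and the stroma and immune cells of the host are mouse, so the sum does not measure how much of them the tumors held. The 12 markers of ovarian carcinoma and SKOV3 summed to 39.0 to 61.2 FPKM in NSCT and 54.3 to 68.3 FPKM in SKOV3 HD, with MUC16 at no more than 3 fragments. Of its 8 tested genes, KRT7, FOLR1 and ERBB2 had a lowest SKOV3 HD value above their highest NSCT value, as 5.77% of all tested genes did, and 0 passed the test. The other 5 overlapped, with log2 fold changes of -0.45 for MECOM, -0.07 for EMX2, 0.22 for MSLN, 0.45 for PAX8 and 0.55 for WT1. The highest log2 fold change of the 8 was 1.65, among the 3 that did not overlap, and the median was 0.39. An unadjusted limma p under 0.05 was reached by 3 of the 8, against 5.73% of all tested genes. VIM was 1.26 FPKM in SKOV3 HD 1 and 3.62 FPKM in SKOV3 HD 3 against at most 0.0963 FPKM in the other 4 tumors. The part of SKOV3 RNA in the values of the 8 genes was not tested.

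The annotated RefSeq promoters of the 3 chromosome 9 genes are shown for the letters around their start sites; which start was used in these tumors was not measured. Each sequence runs 5′ to 3′ on the strand of its gene, from 250 bases before to 50 bases after a RefSeq start site on GRCh38.p14. Capitals mark GC boxes, the letters GGGCGG or their reverse complement CCGCCC. CDKN2A has 2 entries, the upstream start that leads to p14ARF and the downstream start that leads to p16INK4a.
MTAP, chr9:21802386-21802685, plus strand: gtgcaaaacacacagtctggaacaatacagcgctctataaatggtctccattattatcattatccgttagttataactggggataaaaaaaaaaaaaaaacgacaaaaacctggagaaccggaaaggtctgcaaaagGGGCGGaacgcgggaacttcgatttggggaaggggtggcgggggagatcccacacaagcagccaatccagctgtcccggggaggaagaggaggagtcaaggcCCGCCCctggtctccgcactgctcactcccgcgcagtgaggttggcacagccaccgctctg
CDKN2A upstream start, chr9:21995275-21995574, minus strand: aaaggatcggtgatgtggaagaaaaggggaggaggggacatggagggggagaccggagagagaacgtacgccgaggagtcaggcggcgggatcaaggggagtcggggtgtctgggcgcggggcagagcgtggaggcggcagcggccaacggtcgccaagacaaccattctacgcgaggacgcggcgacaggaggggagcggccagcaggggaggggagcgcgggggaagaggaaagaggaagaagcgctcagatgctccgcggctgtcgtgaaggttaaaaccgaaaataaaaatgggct
CDKN2A downstream start, chr9:21974808-21975107, minus strand: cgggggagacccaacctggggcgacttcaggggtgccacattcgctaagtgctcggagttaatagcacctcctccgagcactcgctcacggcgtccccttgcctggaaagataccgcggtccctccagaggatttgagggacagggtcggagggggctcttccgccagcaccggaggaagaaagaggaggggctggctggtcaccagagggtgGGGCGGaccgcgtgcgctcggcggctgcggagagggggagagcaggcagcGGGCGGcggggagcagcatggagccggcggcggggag
CDKN2B, chr9:22009256-22009555, minus strand: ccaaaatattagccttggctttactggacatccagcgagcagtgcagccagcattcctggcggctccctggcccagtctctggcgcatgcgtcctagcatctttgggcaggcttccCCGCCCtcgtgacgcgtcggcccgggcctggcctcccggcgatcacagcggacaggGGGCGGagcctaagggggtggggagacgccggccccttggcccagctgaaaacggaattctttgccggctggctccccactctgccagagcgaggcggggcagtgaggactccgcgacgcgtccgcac

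Both CDKN2A promoters and that of CDKN2B held more CG dinucleotides, the bases that DNA methylation acts on, than the median promoter. The upstream CDKN2A start held 28 of them, the downstream start 26, CDKN2B 25 and MTAP 15, against a median of 14 over 35116 RefSeq promoters of the same length. Fewer were held by 73.8%, 69.9%, 68.0% and 51.1% of all promoters, in that order. Among the other members ARID1A held 33, KDM6A 29, SMAD4 28, BRCA2 25 and the 6 GNAS entries 10 to 43. GC boxes were counted 2 times at MTAP, at the downstream CDKN2A start and at CDKN2B and 0 times at the upstream CDKN2A start, and 45.0% of all promoters hold at least 1. MTAP alone among these 4 held a CCAAT box (CCAAT or ATTGG, in 34.6% of all promoters) and a TATA box (TATAAA or TTTATA, in 11.5%). A match describes the letters of a window and is not a measured site. Methylation was not measured.

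CDKN2A RNA was close to the limit of detection in all 6 tumors. The gene (ENSG00000147889, chromosome 9 from 21967753 to 21995301 of hg38, minus strand) measured 0.0679, 0.128 and 0.0492 FPKM across NSCT tumors 1 to 3, against 0.0333, 0.0790 and 0.0596 FPKM across SKOV3 HD tumors 1 to 3. These values rest on 4, 8 and 3 fragments in NSCT and on 2, 5 and 4 in SKOV3 HD. The groups overlapped, and NSCT 3 and SKOV3 HD 1 lay at or under the level of 3 fragments, which is 0.0447 to 0.0509 FPKM depending on the library. The exact Poisson interval of the highest tumor, NSCT 2, ran from 0.0551 to 0.251 FPKM and that of the lowest, SKOV3 HD 1, from 0.00403 to 0.120 FPKM (95%, counting error only), so the tumors could not be ranked at this depth.

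The NSCT mean of CDKN2A was 0.0815 ± 0.0409 FPKM (SD, n = 3) and the SKOV3 HD mean 0.0573 ± 0.0229 FPKM (SD, n = 3). Over each group the fragments summed to 15 and 11, a ratio per depth of 0.704 (exact 95% interval 0.292 to 1.64, counting error only). CDKN2A did not reach 10 fragments in any tumor and was not among the genes tested. With the filter left out its log2 fold change was -0.19 (standard error 0.29, limma adjusted p = 0.873), and an exact two-sided permutation test of the 6 values gave p = 0.5, where 0.1 is the smallest p that 3 against 3 tumors allow. Of the 15136 tested genes, 15095 had a higher mean FPKM, a place largely set by the filter on fragments, which CDKN2A did not pass. The tables give 1 value per gene, so transcripts of p16INK4a and p14ARF were not separated. On the opposite strand, exons of CDKN2B-AS1 overlap 7.88% of the CDKN2A exon bases, and that RNA had no more than 3 fragments in any tumor.

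CDKN2B was low but present in every tumor. The gene (ENSG00000147883, chromosome 9 from 22002903 to 22009363, minus strand) measured 0.815, 0.748 and 0.490 FPKM across NSCT tumors 1 to 3, against 0.959, 0.506 and 0.350 FPKM across SKOV3 HD tumors 1 to 3, from 22 to 54 fragments. SKOV3 HD 1 was the highest and SKOV3 HD 3 the lowest of all 6 tumors, so the SKOV3 HD group enclosed the NSCT group. The means were 0.684 ± 0.172 FPKM and 0.605 ± 0.317 FPKM (SD, n = 3 each), with a log2 fold change of -0.22 (standard error 0.35, 95% interval -1.02 to 0.57, limma adjusted p = 0.897). Without SKOV3 HD 1 the log2 fold change was -0.56, and without SKOV3 HD 3 it was 0.06. The interval on the linear scale ran from 0.494 to 1.49, the widest of the 7 tested members. In the order of all tested genes CDKN2B stood at the 13.9th percentile.

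MTAP was expressed at a middling level in all 6 tumors. This gene (ENSG00000099810, chromosome 9 from 21802543 to 21937651, plus strand) measured 4.33, 4.28 and 3.37 FPKM across NSCT tumors 1 to 3, against 3.06, 3.97 and 3.67 FPKM across SKOV3 HD tumors 1 to 3, on 621 to 906 fragments. NSCT 1 and 2 held the highest values, and NSCT 3 lay within the SKOV3 HD range. The group means were 3.99 ± 0.538 FPKM and 3.57 ± 0.462 FPKM (SD, n = 3 each). The log2 fold change was -0.16 (standard error 0.17, 95% interval -0.55 to 0.23, limma adjusted p = 0.857), the smallest adjusted p of the members. MTAP stood at the 44.2nd percentile of tested genes, and 9.58% of its exon bases are shared with other genes, none of which had more than 16 fragments in a tumor.

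Within a tumor, MTAP was 33.5 to 92.0 times as high as CDKN2A and 3.19 to 10.5 times as high as CDKN2B, all per exon length. The ratio of CDKN2B to CDKN2A ranged from 5.87 to 28.8, with the highest ratio in SKOV3 HD 1, where CDKN2A rests on 2 fragments. The drop in RNA thus lay between neighbors, since 30.1 kb separate the end of MTAP from the start of CDKN2A and 7.60 kb separate CDKN2A from CDKN2B.

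The surroundings of CDKN2A were read from every gene that starts within 5 Mb of it. Of 133 such genes, 66 had no fragment in any tumor, among them 14 of 42 that code for proteins, and 21 genes (18 protein-coding) were tested. For comparison, 30613 of all 58735 genes had a value above 0 in any tumor. CDKN2A-DT, which starts beside CDKN2A, was at 0 in all 6 tumors, CDKN2B-AS1 had 0 to 3 fragments and the transcription factor gene DMRTA1 at most 1. Of 16 type I interferon genes in the window, which most cells keep silent until they sense a virus, 13 had no fragment and the highest, IFNE, had 9 in its best tumor. On the MTAP side, the nearest tested gene past MTAP was KLHL9, a ubiquitin ligase adaptor, at 11.2 to 14.5 FPKM. Beyond it FOCAD was at 5.86 to 7.32 FPKM, MLLT3 at 7.71 to 12.7 FPKM and the ribosomal protein gene RPS6 at 509 to 606 FPKM. Some protein-coding genes on that side were near 0, among them HACD4 at no more than 0.0776 FPKM and SLC24A2 at no more than 0.0240 FPKM. On the other side, the next tested gene apart from CDKN2B and IZUMO3 was CAAP1 at 11.6 to 15.8 FPKM, which starts 4.87 Mb from the CDKN2A start. Of the 39 genes between MTAP and CAAP1, 3 were tested, namely CDKN2B, AL359922.2 and IZUMO3, a sperm membrane protein gene at 0.953 to 6.01 FPKM.

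**Figure D1:**
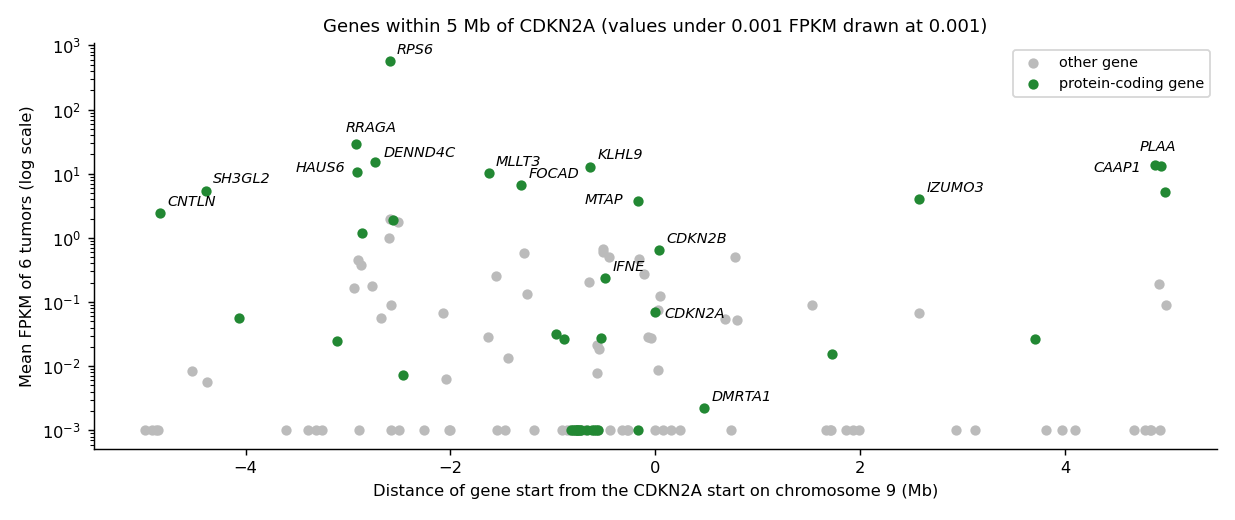
Mean FPKM of 6 tumors, on a log axis, of the genes within 5 Mb of CDKN2A against the distance of their start from the CDKN2A start in Mb. Green points code for proteins, gray points do not, and means under 0.001 FPKM are drawn at 0.001. MTAP lies well above CDKN2B and CDKN2A, and past CDKN2B the right side stays under 1 FPKM, except for IZUMO3, until CAAP1 and its neighbors.

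None of the 21 tested genes of the window passed the test. Their log2 fold changes ran from -0.38 for AL158206.1 to 0.30 for PLIN2, a lipid droplet protein gene, with a median of -0.14 and 14 of 21 below 0, while 49.9% of all 15136 tested genes lay below 0. MTAP at -0.16 and CDKN2B at -0.22 lay inside this range.

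The partners of these inhibitors were expressed. CDK4, the kinase that p16INK4a restrains, was at 24.7 to 29.4 FPKM over the 6 tumors with a log2 fold change of -0.07, its relative CDK6 at 3.73 to 6.61 FPKM with -0.14, and RB1, the retinoblastoma suppressor, at 19.9 to 23.6 FPKM with -0.04. All 26 genes of the p16INK4a, RB1 and E2F axis were tested, 10 above and 16 below 0 with a median of -0.05, and 0 passed. The smallest unadjusted p in that list belonged to TFDP1, a dimer partner of E2F factors, at -0.24 ± 0.11 (standard error), CDKN2D, another inhibitor of the same family, at 0.26 ± 0.14, and the cyclin gene CCNE2 at -0.36 ± 0.20. In the axis of p14ARF, MDM2 and p53, 6 of 12 tested genes lay above 0, with a median of 0.06, and 0 passed. BBC3, a death gene that p53 switches on, was at 0.39 ± 0.25, the p53 target ZMAT3 at -0.27 ± 0.19 and MDM2 at -0.21 ± 0.18.

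Loss of MTAP makes its substrate build up, which hinders the arginine methyltransferase PRMT5, so the salvage pathway and PRMT5 were read beside it. PRMT5 was at 20.0 to 23.1 FPKM with a log2 fold change of -0.05, and MAT2A, which makes the methyl donor, at 39.2 to 60.1 FPKM with 0.03. Of 16 tested genes of this list, 14 lay below 0, with a median of -0.07, and 0 passed. The salvage isomerase gene MRI1 had the largest difference, -1.30 ± 0.52 (standard error), with 0.511, 0.779 and 0.431 FPKM across NSCT tumors 1 to 3 against 0.0209, 0.178 and 0.467 FPKM across SKOV3 HD tumors 1 to 3, which overlap. MRI1 had no more than 39 fragments in any tumor, and its SKOV3 HD 1 value lies under the 0.1 FPKM added before the logarithm. The spermine synthase gene SMS, at -0.22 ± 0.10, had all its SKOV3 HD values below its NSCT values, and the spermidine synthase gene SRM was at -0.17 ± 0.12.

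SMAD4 encodes the shared partner that carries receptor-activated SMAD proteins of the TGF-beta and BMP pathways to their target genes. The gene (ENSG00000141646, chromosome 18 from 51028394 to 51085045, plus strand) measured 7.43, 5.39 and 7.01 FPKM across NSCT tumors 1 to 3, against 6.52, 6.99 and 6.09 FPKM across SKOV3 HD tumors 1 to 3, on 1026 to 1341 fragments. NSCT 1 held the highest and NSCT 2 the lowest value, so all SKOV3 HD tumors lay inside the NSCT range. The means were 6.61 ± 1.07 FPKM and 6.53 ± 0.453 FPKM (SD, n = 3 each). The log2 fold change was -0.01 (standard error 0.15, 95% interval -0.36 to 0.34, limma adjusted p = 0.996), a sign that turned to 0.01 with scaling to total fragments and to 0.02 with upper-quartile scaling. It was 0.08 without NSCT 1. On the linear scale, the 95% interval of the difference ran from 0.781 to 1.27.

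Of 23 receptors, SMAD genes and regulators of the TGF-beta and BMP pathways, all were tested, 8 above and 15 below 0, with a median of -0.14 and 0 past the test. The SMAD4 partners SMAD2 and SMAD3 were at -0.15 ± 0.20 (standard error) and 0.28 ± 0.14. The BMP receptor gene BMPR1A, with 7.08, 6.19 and 5.62 FPKM across NSCT tumors 1 to 3 against 4.28, 4.48 and 4.77 FPKM across SKOV3 HD tumors 1 to 3, did not overlap between groups (-0.47 ± 0.14, limma adjusted p = 0.803). Its relative BMPR1B did not overlap either, at -1.37 ± 0.43, nor did the SMAD anchor ZFYVE9 at -0.30 ± 0.13. In all, 5 of the 23 were lower in every SKOV3 HD tumor and 0 higher, against 7.02% and 5.77% of all tested genes. Among 14 tested SMAD target genes, 8 lay above 0, the median was 0.09 and 0 passed, with the transcription regulator genes ID1 at -0.41 ± 0.24 and ID2 at -0.22 ± 0.13.

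ARID1A, the DNA-binding subunit that defines the BAF form of the SWI/SNF chromatin remodeler, was the second most expressed member. This gene (ENSG00000117713, chromosome 1 from 26693236 to 26782110, plus strand) measured 8.95, 9.66 and 9.06 FPKM across NSCT tumors 1 to 3, against 10.05, 10.8 and 8.96 FPKM across SKOV3 HD tumors 1 to 3, on 1939 to 2506 fragments. SKOV3 HD 1 and 2 held the highest values and SKOV3 HD 3 lay among the NSCT tumors. The means were 9.22 ± 0.380 FPKM and 9.92 ± 0.907 FPKM (SD, n = 3 each), a log2 fold change of 0.10 (standard error 0.12, 95% interval -0.16 to 0.37, limma adjusted p = 0.863). ARID1A was the member with a difference above 0, and it kept that sign with both other scalings.

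The alternative subunit ARID1B was at 1.73 to 2.17 FPKM with a log2 fold change of -0.03, and the catalytic subunit SMARCA4 at 15.1 to 17.7 FPKM with 0.04. Of 27 tested SWI/SNF subunits, 7 lay above and 20 below 0, with a median of -0.07 and 0 past the test. BCL7B at -0.20 ± 0.10 (standard error) and SMARCC1 at -0.16 ± 0.09 did not overlap between groups, while ACTL6A at -0.18 ± 0.11 did. In all, 5 subunits lay lower in every SKOV3 HD tumor and 2 higher (DPF2 at 0.17 and BCL7A at 0.21), against 7.02% and 5.77% of all tested genes.

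KDM6A, an X-linked demethylase that removes the repressive methyl mark from lysine 27 of histone H3, works beside the methyltransferases KMT2C and KMT2D. The gene (ENSG00000147050, chromosome X from 44873177 to 45112602, plus strand) measured 5.14, 4.03 and 3.94 FPKM across NSCT tumors 1 to 3, against 3.58, 4.59 and 4.07 FPKM across SKOV3 HD tumors 1 to 3, on 355 to 499 fragments. NSCT 1 held the highest and SKOV3 HD 1 the lowest value, and the other 4 tumors were mixed. The means were 4.37 ± 0.669 FPKM and 4.08 ± 0.503 FPKM (SD, n = 3 each), with a log2 fold change of -0.09 (standard error 0.17, 95% interval -0.47 to 0.29, limma adjusted p = 0.910). Without NSCT 1 the sign turned, to 0.03.

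In the list of KMT2C and KMT2D complex members and H3K27 methyltransferase subunits, 4 of 14 tested genes lay above 0 and 10 below, with a median of -0.06 and 0 past the test. KMT2C was at -0.20 ± 0.13 (standard error) and KMT2D at 0.06 ± 0.19. SUZ12, a subunit of the complex that writes the mark KDM6A removes, measured 24.2, 18.7 and 19.6 FPKM across NSCT tumors 1 to 3, against 14.8, 17.0 and 17.8 FPKM across SKOV3 HD tumors 1 to 3 (-0.33 ± 0.13, limma adjusted p = 0.803). These SUZ12 groups did not overlap, nor did those of the scaffold gene WDR5 at -0.16 ± 0.10, and PAXIP1 was at -0.25 ± 0.15. With KMT2C and NCOA6, 4 of the 14 lay lower in every SKOV3 HD tumor and 0 higher, against 7.02% and 5.77% of all tested genes.

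BRCA2 acts in the repair of broken DNA by homologous recombination, and inherited mutations in it raise the risk of pancreatic cancer. The gene (ENSG00000139618, chromosome 13 from 32315474 to 32400266, plus strand) measured 7.003, 4.34 and 4.39 FPKM across NSCT tumors 1 to 3, against 3.82, 5.07 and 5.09 FPKM across SKOV3 HD tumors 1 to 3, on 650 to 1169 fragments. NSCT 1 stood above the other 5 tumors, and NSCT 2 and 3 lay inside the SKOV3 HD range. The means were 5.24 ± 1.52 FPKM and 4.66 ± 0.728 FPKM (SD, n = 3 each), and the log2 fold change was -0.14 (standard error 0.22, 95% interval -0.64 to 0.36, limma adjusted p = 0.894). Without NSCT 1 the log2 fold change was 0.08, so the sign of the BRCA2 difference rested on that tumor.

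Of 33 tested genes of homologous recombination and the Fanconi anemia pathway, 15 lay above and 18 below 0, with a median of -0.04 and 0 past the test. PALB2, which bridges BRCA1 and BRCA2, was at -0.37 ± 0.16 (standard error) and the end-resection factor RBBP8 at -0.58 ± 0.30, and the groups overlapped for both. In all, 2 of the 33 lay lower in every SKOV3 HD tumor, among them the kinase gene ATR at -0.27, and 2 higher, among them the kinase gene CHEK2 at 0.18, against 7.02% and 5.77% of all tested genes.

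GNAS, which encodes the stimulatory G protein alpha subunit that switches on cAMP synthesis and is activated by mutation in cystic precursors of pancreatic cancer, was the most expressed member. The gene (ENSG00000087460, chromosome 20 from 58839718 to 58911192, plus strand) measured 57.8, 55.1 and 55.1 FPKM across NSCT tumors 1 to 3, against 54.8, 51.4 and 54.4 FPKM across SKOV3 HD tumors 1 to 3, on 10001 to 11232 fragments. Every SKOV3 HD tumor lay below every NSCT tumor, by a narrow margin between SKOV3 HD 1 and NSCT 3. The means were 56.0 ± 1.59 FPKM and 53.5 ± 1.89 FPKM (SD, n = 3 each), a log2 fold change of -0.06 (standard error 0.09, 95% interval -0.27 to 0.14, limma adjusted p = 0.879). An exact two-sided permutation test gave p = 0.1, the smallest that 3 against 3 tumors allow. GNAS was the 1 member of 8 whose groups did not overlap, where 12.8% of all tested genes had such groups (7.02% lower in SKOV3 HD), and with the libraries scaled to total fragments or to the upper quartile its groups overlapped. The locus is imprinted and has several first exons, 6 RefSeq promoter entries and 58 annotated transcripts, and the deposited gene value adds all of them. GNAS-AS1, on the opposite strand, shares 1127 exon bases with it and had at most 4 fragments.

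Downstream of GNAS, the catalytic kinase subunit PRKACA was at 7.71 to 10.8 FPKM with a log2 fold change of 0.03. Of 29 tested genes of the Gs, cAMP and protein kinase A pathway, 7 lay above and 22 below 0, with a median of -0.10 and 0 past the test. The regulatory subunit PRKAR2B had the largest difference, -1.04 ± 0.48 (standard error), with overlapping groups. PRKAR2A at -0.35 ± 0.14, the catalytic subunit PRKACB at -0.30 ± 0.16 and GNB1 at -0.12 were the 3 that did not overlap between groups, all lower. Of all tested genes, 7.02% lay lower in every SKOV3 HD tumor and 5.77% higher. Among 32 tested other recurrently mutated pancreatic cancer genes, 11 lay above and 21 below 0, with a median of -0.13 and 0 past the test. MAP2K4 at -0.26 ± 0.11, KMT2C and PBRM1 were the 3 that did not overlap, all lower, against the same 7.02% and 5.77% of all tested genes.

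**Figure D2:**
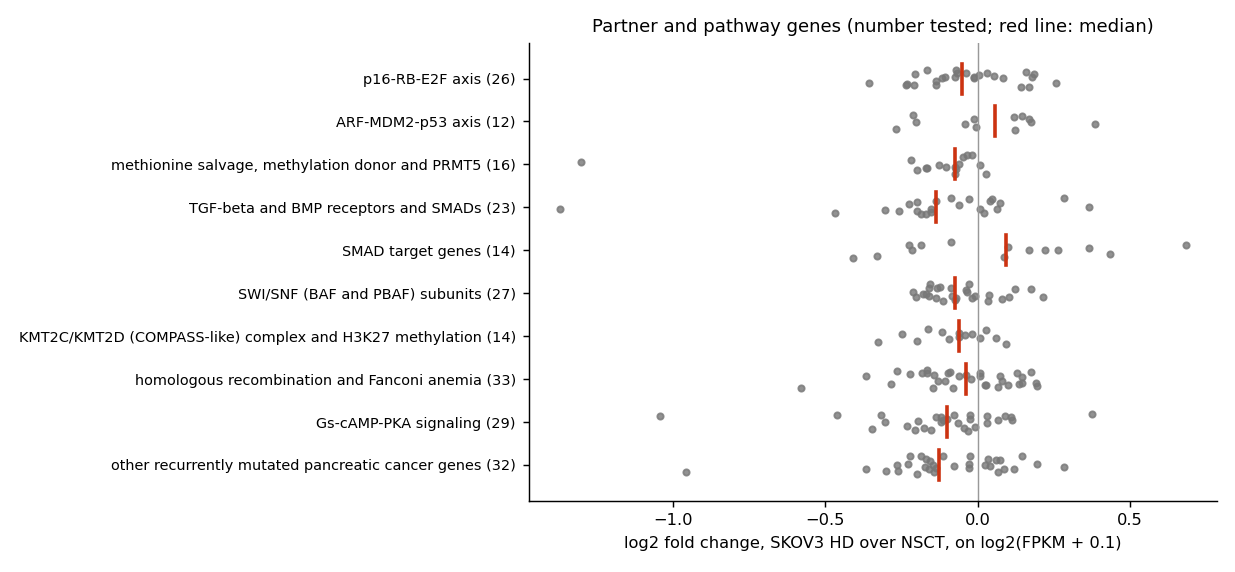
Log2 fold changes, SKOV3 HD over NSCT, of the tested genes in the 10 partner and pathway lists, with the number tested beside each name. Each point is a gene and the red line is the median of its list. Medians lie between -0.14 and 0.09, and the points furthest from 0 are BMPR1B, MRI1 and PRKAR2B on the lower side.

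Set side by side, the members differed far more from each other than between groups. By mean FPKM the order was GNAS, ARID1A, SMAD4, BRCA2, KDM6A, MTAP, CDKN2B and CDKN2A. The ranges of the 6 tumors were separate between GNAS and ARID1A, between ARID1A and SMAD4, between MTAP and CDKN2B and between CDKN2B and CDKN2A. The neighbors SMAD4 and BRCA2, BRCA2 and KDM6A, and KDM6A and MTAP had ranges that overlapped. FPKM divides by all annotated exon bases of a gene, 14617 for MTAP against 6122 in its principal transcript. Per principal transcript length, MTAP moved from the 6th to the 4th place, at 9.03, and BRCA2 from the 4th to the 6th, at 5.07, while CDKN2A at 0.234 and CDKN2B at 0.669 remained the lowest.

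The spread over all 6 tumors was smallest for GNAS, with an SD of 3.76% of its mean, and was 7.64% for ARID1A and 11.2% for SMAD4. It was 13.1% for KDM6A, 13.4% for MTAP and 22.5% for BRCA2. The low genes varied most, CDKN2B by 36.0% and CDKN2A by 46.8%, on the fewest fragments. By tumor, NSCT 1 held the highest value of 5 members (MTAP, SMAD4, KDM6A, BRCA2 and GNAS) and the lowest of ARID1A. SKOV3 HD 1 held the lowest value of 4 (CDKN2A, MTAP, KDM6A and BRCA2) and the highest of CDKN2B.

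**Figure D3:**
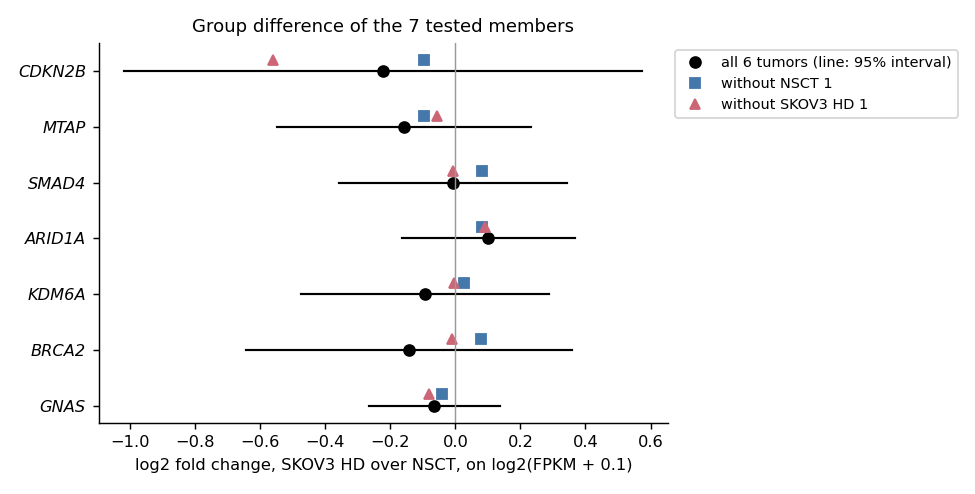
Log2 fold change, SKOV3 HD over NSCT on log2(FPKM + 0.1), of the 7 tested members. Black points with lines are all 6 tumors with the 95% interval, blue squares leave out NSCT 1 and red triangles leave out SKOV3 HD 1. Every interval includes 0, and leaving out NSCT 1 moves SMAD4, KDM6A and BRCA2 above 0.

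Of the 7 tested members, 0 passed the test at an adjusted p under 0.05, which called 0 of all 15136 genes (0%). At an unadjusted p under 0.05 limma gave 867 genes (5.73%, with 3.04% higher and 2.69% lower in SKOV3 HD) and limma-voom on recovered fragments 851, and 0 of the members were among those of either. A doubling (at least 2) or a halving (0.5 or less) was reached by 125 genes (0.826%) and by 0 members. The log2 fold change was below 0 for 6 of the 7 tested members, all but ARID1A, against 49.9% of all tested genes. The intervals of the differences on the linear scale were 0.832 to 1.10 for GNAS, 0.892 to 1.29 for ARID1A, 0.720 to 1.22 for KDM6A, 0.685 to 1.17 for MTAP and 0.640 to 1.28 for BRCA2. Differences inside these intervals were not detectable with 3 tumors a group, and a p that misses the threshold does not show that the groups are alike.

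For each tested member the gene with the most similar pattern was sought among the other 15135 by Pearson r of log2(FPKM + 0.1) over the 6 tumors, as a description. These were WDR77 for CDKN2B (r = 0.983), SS18L2 for MTAP (0.994), RNF144B for SMAD4 (0.995), AL669831.1 for ARID1A (0.993), VWA8 for KDM6A (0.997), AP001469.3 for BRCA2 (0.995) and LZIC for GNAS (0.995). With 6 tumors, 59 to 569 genes had an r above 0.9 with a given member, and all points share the same libraries and their depth.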

How the data were processed

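RNA was extracted from 3 NSCT and 3 SKOV3 HD tumors, and polyA RNA was sequenced in 1 library per tumor. According to the submitters' processing notes, reads were aligned with HISAT2 (2.0.5) to hg38 and counted with featureCounts (1.5.0-p3). The sources used here do not say how strand, fragments that overlap several genes or mouse reads were handled. The deposited tables hold FPKM values that the authors computed for 58735 genes, and all identifiers matched GENCODE release 29. FPKM times exon length came out as whole multiples of a library-specific step (tolerance 0.01) for 100% of values, and fragments were recovered from it, 13585284 to 15258633 per library. Intervals and floors from fragments cover counting error only.

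Groups follow the titles of the samples. Genes with at least 10 fragments in at least 3 libraries (15136) were tested with limma (3.58.1, R 4.3.3) on log2(FPKM + 0.1), two-sided, with a mean-variance trend and Benjamini-Hochberg adjustment at 0.05. A count model was not the main test because FPKM are not counts. The replicates are stated to be biological, and where tumors came from pieces of 1 donor tumor the p-values measure the spread between the host mice only. Exact permutation tests, intervals and plots used Python 3.11.15, SciPy 1.17.1, pandas 2.3.3, NumPy 2.4.6 and Matplotlib 3.10.9. The pipeline was tested on simulated data. Named genes are the 8 members, tested genes of the CDKN2A window, up to 3 genes per pathway list by smallest unadjusted p, listed direct partners and the most similar gene of each member, and a few genes that this rule names are not reported here. Some markers, low neighbors of CDKN2A and list genes whose groups did not overlap were named after their values were seen. The members and lists were chosen with earlier results of these data known. Alternatives changed the pseudocount, the filter, the scaling, the test, the replicate block and the set of tumors.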

Additional observations from a re-analysis of the deposited data

How the results depend on the processing

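In all 16 settings run, 0 genes and 0 members passed limma's test at an adjusted p under 0.05, with 438 to 1582 genes at an unadjusted p under 0.05 and the smallest adjusted p of a member between 0.642 and 0.978. The groups of 1 member, GNAS, did not overlap. The count was 0 with scaling to total fragments or to the upper quartile, and 1 to 2 when single tumors were left out, with SMAD4 as the added member without NSCT 2, MTAP without NSCT 3 and ARID1A without SKOV3 HD 3. Groups separate more readily with 1 tumor fewer, and the share over all tested genes was not computed for these settings. When single tumors were left out, the log2 fold change ran from -0.562 to 0.0559 for CDKN2B (above 0 without SKOV3 HD 3), from -0.145 to 0.0827 for SMAD4 (above 0 without NSCT 1, NSCT 3 or SKOV3 HD 3), from -0.179 to 0.0275 for KDM6A (above 0 without NSCT 1) and from -0.259 to 0.0803 for BRCA2 (above 0 without NSCT 1). SMAD4 also turned with scaling to total fragments (0.0106) and to the upper quartile (0.0210). The cause was not tested. MTAP, ARID1A and GNAS kept their sign in every setting in which they were fitted. CDKN2A was fitted where no filter was applied and rests on 2 to 8 fragments per tumor, so depth limits it. The deviations of same-numbered tumors from their group means had correlations of -0.14, -0.19 and -0.13 over genes. These values show no likeness of same-numbered tumors, but with 3 tumors a group they cannot exclude a pairing in the handling. With the replicate number as a block, 0 genes and 0 members passed, with 532 genes at an unadjusted p under 0.05.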
